A study of Mus musculus with 3 samples.

Results

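Cells with high transcript counts of both Arg1 and Ppbp were examined among leukocytes of the infarcted mouse heart. A cell belonged to this set when it had at least 200 genes, at least 5 molecules of Arg1, at least 2 molecules of Ppbp, and C1qa, C1qb and C1qc summing to at least 0.1% of its molecules. It also had to have at most 2 molecules of Fabp4, at most 1 of Prg4 and Gata6 together, class II transcripts (H2-Aa, H2-Ab1, H2-Eb1 and Cd74) below 1%, at most 2 molecules of Top2a and Mki67 together, and 0 of Cd3e, Cd3d, Cd3g and Cd79a. This rule kept 540 of the 25762 deposited cells, called Arg1 Ppbp macrophages here. Before the other limits, 1386 cells passed both the Arg1 and the Ppbp limits. Of these, the cycling limit alone or with others left out 356, the C1q limit 297, the Fabp4 limit 237, the lymphoid limit 107, the class II limit 44 and the Prg4 and Gata6 limit 40. The main comparison was with the 10880 other cells that met the C1q, cycling, Cd3 and Cd79a limits (comparison cells). The nearest sets were 1709 cells that met every limit except that Ppbp was 0 (Arg1-only cells) and 95 that met every limit except that Arg1 was 0 (Ppbp-only cells).

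The hearts came from mice carrying F7fl/fl, a loxP-flanked allele of coagulation factor VII, with or without CX3CR1Cre, a recombinase driven by the Cx3cr1 gene, which monocytes and many macrophages express. All had a permanent coronary ligation and were taken at several times after it. CD45-selected cells were read on the BD Rhapsody platform in 3 multiplexed libraries, with 18 sample tags divided 7, 5 and 6 among them. The labels and headers used here give no genotype or time for single tags, no age, and not which part of F7 the allele removes. No genotype or time is compared here, and each test sets cells of a tag against other cells of that tag.

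Arginase 1, the product of Arg1, hydrolyses arginine to ornithine and urea, and it marks macrophages of healing wounds and of alternative activation. Ppbp encodes the precursor of CXCL7, a chemokine for neutrophils, and Pf4 encodes CXCL4. Both are best known from the alpha granules of platelets. Pdpn encodes podoplanin, a membrane glycoprotein of lymphatic endothelium, fibroblasts and inflammatory macrophages that binds the platelet receptor CLEC-2.

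Library 1 held 431 of the 540 cells, library 2 held 58 and library 3 held 51. The libraries differ in bead version and pipeline release, and only library 1 was made with intronic reads not excluded, so differences between libraries cannot be told apart from these. The run name of library 1 also includes d3, whose meaning is not stated and which was not used as a time, so a difference in time between the libraries cannot be told apart either. The cells per tag numbered 22 to 110 in the first library, 0 to 28 in the second and 0 to 22 in the third. As a share of all cells meeting the C1q, cycling, Cd3 and Cd79a limits, they made up a median of 3.94% over the 18 tags (lowest 0, highest 12.8). The medians by library were 6.09%, 1.73% and 0.887%. Tag 10 of library 1 was the highest (110 of 857 cells, exact Clopper-Pearson 95% interval 10.7 to 15.3%). Tag 5 of library 2 had 0 of 414 cells, which allows a share of up to 0.725% by a limit of 3 counts (upper end of the exact interval 0.887%), and tag 11 of library 3 had 0 of 522, which allows up to 0.575% by the same limit (exact upper end 0.704%). These intervals and limits cover counting error only.

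**Figure D1:**
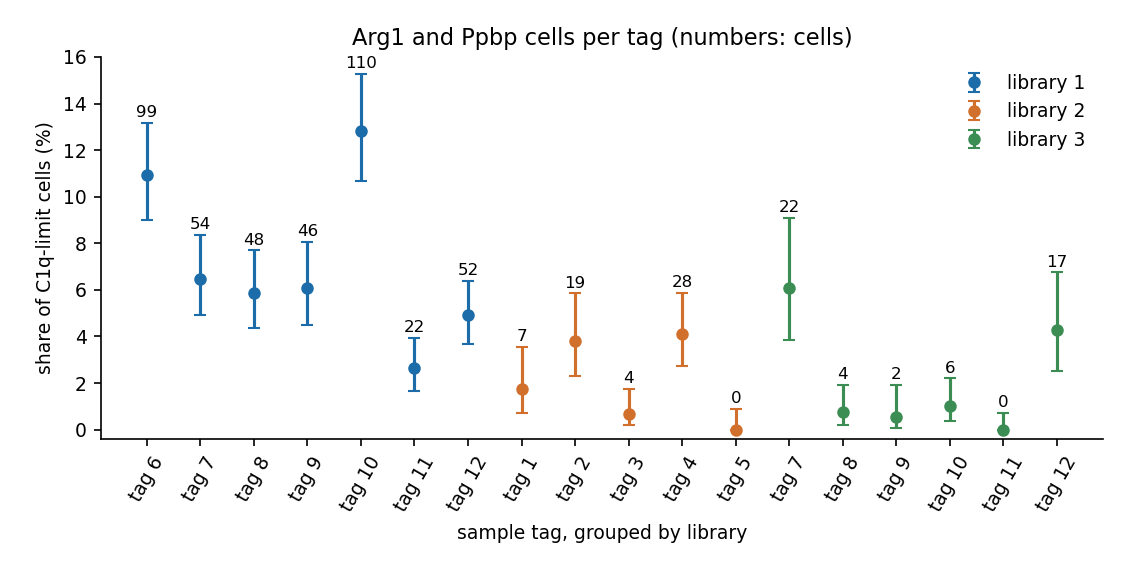
Share of Arg1 Ppbp macrophages among cells meeting the C1q, cycling, Cd3 and Cd79a limits (y axis, %) in each of the 18 sample tags (x axis), with exact Clopper-Pearson 95% intervals. Tag 10 of library 1 is highest at 12.8%, and 2 tags, one in library 2 and one in library 3, are at 0.

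A limit in molecules favours deeply read cells. The 540 cells had a median of 26575.5 molecules (3591 to 111380) and 4774.5 genes, against 17678.5 molecules in the comparison cells, 21745 in the Arg1-only cells and 20309 in the Ppbp-only cells. As an alternative, the Arg1 and Ppbp counts were taken from cells thinned to 5000 molecules, while the other limits were applied to the whole cells. This left out 4 of the 540 cells and 627 comparison cells as too shallow. Then 229 cells qualified, a median share of 1.47% over the 18 tags. In lymphoid cells, which should lack both genes, 4.52% of 995 cells had at least 5 molecules of Arg1 and 0.905% had at least 2 of Ppbp, at a median of 8396 molecules. Both limits together were passed by 5 of those 995 cells. No cell index was shared within a library, and 4 were shared between libraries 1 and 2, 3 between libraries 1 and 3, and 0 between libraries 2 and 3. The doublet caller's automatic threshold marked 3, 2 and 0 cells and so had not worked. Of the 540 cells, 8 (1.48%) were among the 2% of cells with the highest doublet scores, and they were kept.

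The label was checked against markers. All 10 macrophage markers were detected, and their summed level was 19851 CPM (counts per set scaled to a common total of molecules) against 23461 in the comparison cells and 22218 in the Arg1-only cells. By edgeR 4 of the 10 were lower than in the comparison cells (Ctss by 0.32, Csf1r by 0.31, Mertk by 0.27 and Adgre1 by 0.17 on the log2 scale) and 1, Cd14, was higher (0.30), and Csf1r and Ctss were also lower than in the Arg1-only cells, by 0.28 and 0.21. The 15 markers of platelets and megakaryocytes summed to 8.57 CPM, below the 22.5 CPM of the comparison cells and the 14.3 CPM of the Arg1-only cells. The sum was 6.11 CPM in the Ppbp-only cells and 10.4 CPM in cells with neither gene that met the other limits. Over the tags with at least 20 cells, it ranged from 1.60 to 12.1 CPM in the Arg1 Ppbp macrophages (9 tags) and from 9.86 to 63.7 CPM in the comparison cells (18 tags). Only 2 of the 15 were tested, and 1, Selp, also a cavity macrophage marker, was lower. Gp9, Gp1bb, Gp1ba and Gp6, which encode platelet adhesion receptors, were at 0 molecules in the 540 cells. Other platelet markers were at 0.320 CPM (Itga2b), 0.256 (Gp5), 0.0639 (Tubb1, Nrgn and Mmrn1 each), 0.192 (Clec1b), 1.73 (Treml1), 2.81 (Gng11), 0.320 (Alox12) and 2.69 (Selp). Ppbp and Pf4 themselves stood at 1462 and 3020 CPM in the same cells.

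Of the remaining marker sums, those of neutrophils and endothelial cells were above the comparison cells when pooled, but their medians over tags were below. The 8 neutrophil markers summed to 354 CPM (123 to 524 over 9 tags, median 200) against 274 CPM (151 to 499 over 18 tags, median 243). Mmp9, a gelatinase also made by macrophages, gave 188 of the 354 CPM. By edgeR 3 of the 7 neutrophil genes tested were lower (S100a9, Il1r2 and Csf3r) and 1, Mmp9, was higher, with a median log2 difference of -0.79. The neutrophil genes S100a8 and S100a9 were at 22.6 and 16.5 CPM against 30.9 and 31.5. Fibroblast markers summed to 80.4 CPM (24.0 to 149) against 306 (44.2 to 1030), dendritic cell markers to 6.52 against 24.8 and erythroid markers to 4.54 against 61.2. Endothelial markers summed to 24.8 CPM against 23.8 (medians over tags 21.8 and 22.6), cardiomyocyte markers to 7.35 against 10.2 and lymphoid markers to 10.1 against 15.2. Their part in the results was not tested.

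The genes of the rule and the label genes Pf4 and Pdpn are given as description only, with no test. Pooled over tags, Arg1 stood at 3091 CPM in the Arg1 Ppbp macrophages against 1080 CPM in the comparison cells, and Ppbp at 1462 against 29.0. Within the set a cell held a median of 50 molecules of Arg1 (quartiles 17.75 to 120, highest 765) and 11 of Ppbp (quartiles 3.75 to 40, highest 731). Ppbp was the more concentrated: its 10 richest cells held 22.2% of its molecules, against 11.2% for Arg1. In the 9 tags with at least 20 cells, Arg1 had a lowest level of 1268 CPM, a median of 2097 and a highest of 6319, and Ppbp 404, 1467 and 2944. Arg1 levels of the Arg1-only cells in the same tags ran from 1142 through a median of 1620 to 6095 CPM, so the Arg1 ranges overlapped almost wholly.

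Pf4 was carried by 538 of the 540 cells and Pdpn by 479 (88.7%). Over the same 9 tags, Pf4 had a lowest level of 2273 CPM, a median of 2582 and a highest of 4753. In the comparison cells of these tags it was 756, 1118 and 1538 CPM, and in the Arg1-only cells 1046, 1323 and 1821. Every tag of the Arg1 Ppbp macrophages lay above every tag of both other sets for Pf4. Pdpn ran from 400 through 649 to 888 CPM, against 189, 267 and 338 CPM in the comparison cells, again without overlap. In the Arg1-only cells Pdpn was at 316, 364 and 491 CPM, which overlapped the range of the Arg1 Ppbp macrophages. Outside library 1, Pf4 was higher still: 4646 CPM in library 2 and 4249 in library 3, against 2628 in library 1.

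**Figure D2:**
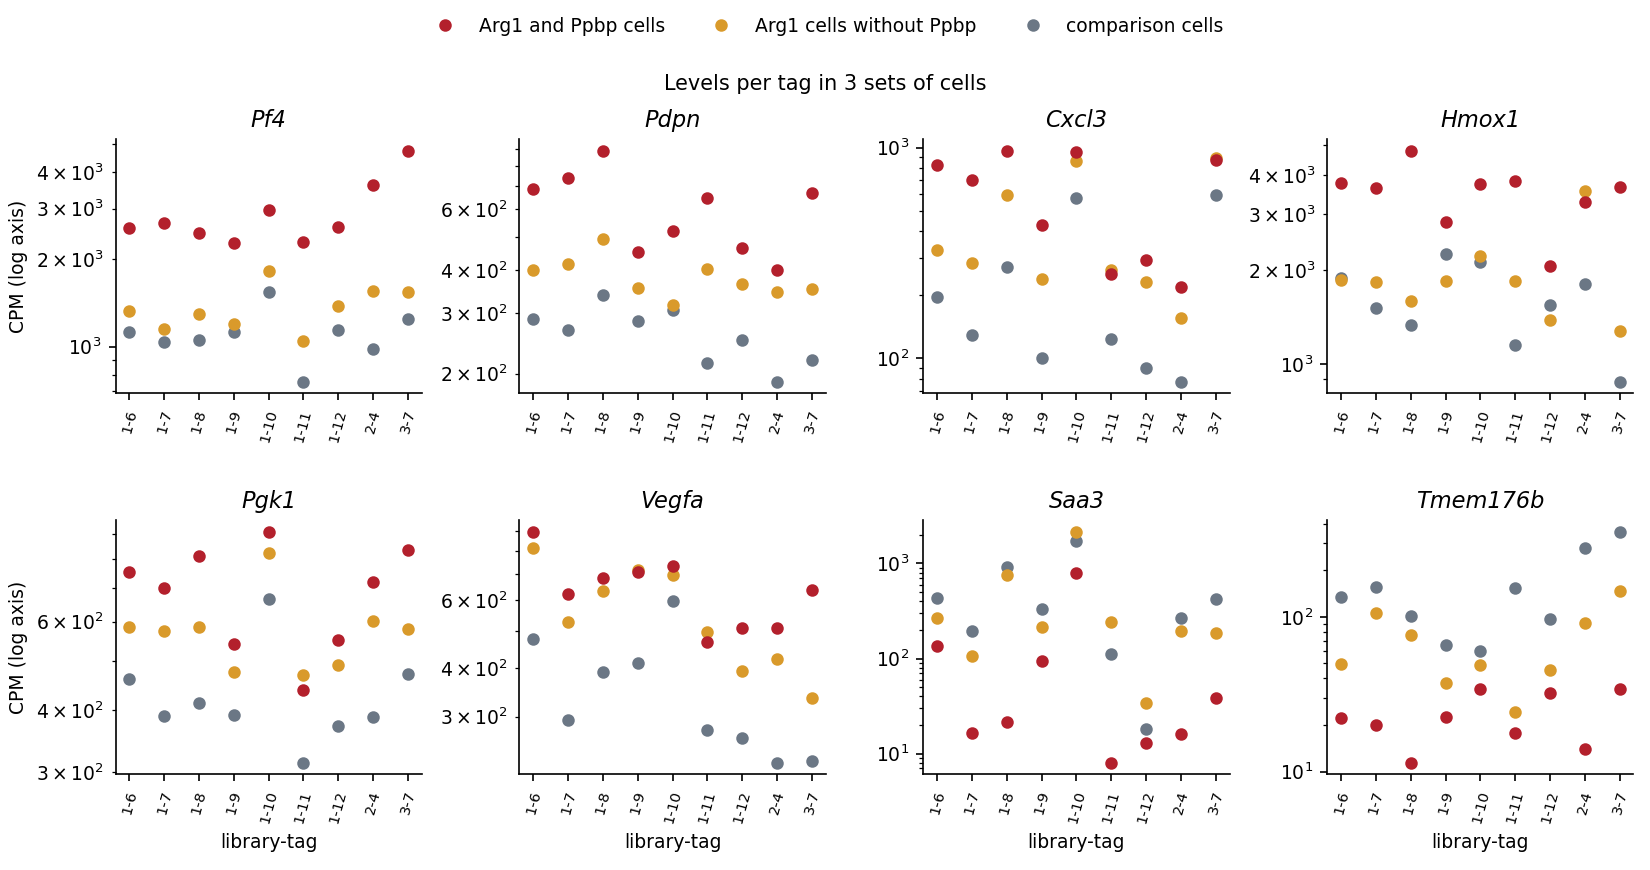
Levels (CPM, log axis) of 8 genes in each of the 9 tags with at least 20 Arg1 Ppbp macrophages, for these cells, the Arg1-only cells and the comparison cells. Pf4 separates the sets without overlap, 2273 CPM or more in the Arg1 Ppbp macrophages and at most 1821 CPM in the others, while Saa3 and Tmem176b are lower in every tag.

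Among cells with at least 5 Arg1 molecules, Pf4 and Pdpn were graded with Ppbp. In cells with 0, 1, 2 to 9, 10 to 49 and at least 50 Ppbp molecules (1709, 216, 254, 169 and 117 cells), Pf4 stood at 1376, 2078, 2426, 3383 and 3718 CPM. Pdpn stood at 344, 479, 518, 626 and 792 CPM in the same order, and Vegfa, which encodes vascular endothelial growth factor A, at 548, 560, 668, 681 and 708. Gpnmb, a lysosomal membrane glycoprotein of lipid-laden macrophages, went the other way, from 950, 943 and 873 to 676 and 477 CPM. All these levels are pooled over cells. For Gpnmb the median over single cells was higher in the Arg1 Ppbp macrophages (169 CPM) than in the Arg1-only cells (88.8 CPM). Selenop, a selenium carrier of resident macrophages, was at 2382, 2498, 2359 and 2238 CPM and at 1371 CPM only in the highest class. Pf4 and Pdpn were close on both sides of the Ppbp limit, while Gpnmb and Vegfa were less so. The 92 cells just inside the limit (2 molecules) had 2105 CPM of Pf4 and 491 of Pdpn, and the 216 just outside (1 molecule) had 2078 and 479. Gpnmb was at 662 CPM just inside and 943 just outside, and Vegfa at 690 and 560. For the Arg1 limit, 14 cells just inside (5 molecules) had 2028 CPM of Pf4 and 306 of Pdpn, and 24 just outside (4 molecules) had 2353 and 387. Cell by cell within the set the relations were weak, with Spearman's rho of 0.303 for Ppbp and Pf4, 0.219 for Arg1 and Ppbp and 0.151 for Ppbp and Pdpn (536 cells thinned to 5000 molecules, which share tags and libraries).

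**Figure D3:**
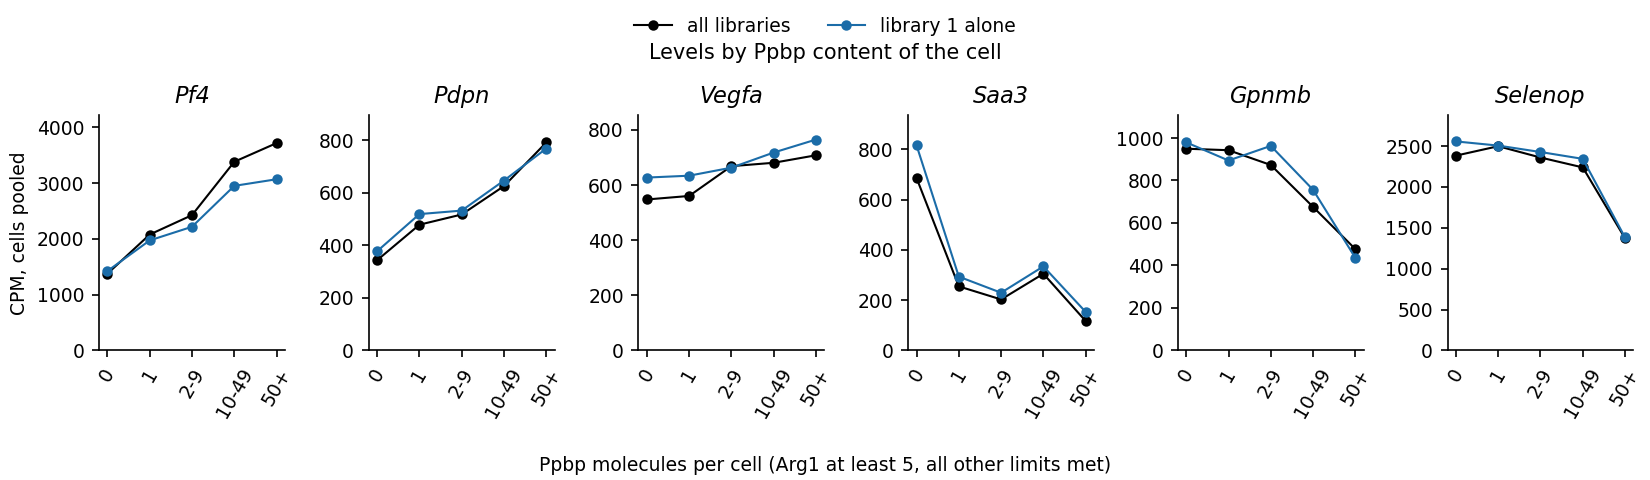
Pooled level (CPM) of 6 genes in cells with at least 5 Arg1 molecules and every other limit met, by the number of Ppbp molecules in the cell, for all libraries and for library 1. Pf4 goes from 1376 CPM at 0 Ppbp molecules to 3718 CPM at 50 or more, and Gpnmb from 950 to 477 CPM.

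Ppbp and Pf4 are neighbours in a chemokine cluster on chromosome 5 (GRCm38, plus strand): Cxcl5 at 90759360 to 90761624, Ppbp at 90768518 to 90770063, Pf4 at 90772435 to 90773383 and Cxcl3 at 90786103 to 90789600. A gap of 2371 bases lies between Ppbp and Pf4. Cxcl15, Cxcl1 and Cxcl2 follow, and then Mthfd2l and the growth factor genes Epgn, Ereg and Areg. The 250 bases before the annotated start of the 3 adjacent genes Ppbp, Pf4 and Cxcl3 are shown, because the first defines the cells and the next ones along the chromosome were high in them too, with each TATAAA, the core of the TATA box, in capitals. Sequences are from RefSeq, build GRCm38.p6, plus strand, 5′ to 3′, at chr5:90768268-90768517 for Ppbp, chr5:90772185-90772434 for Pf4 and chr5:90785851-90786100 for Cxcl3.
Ppbp: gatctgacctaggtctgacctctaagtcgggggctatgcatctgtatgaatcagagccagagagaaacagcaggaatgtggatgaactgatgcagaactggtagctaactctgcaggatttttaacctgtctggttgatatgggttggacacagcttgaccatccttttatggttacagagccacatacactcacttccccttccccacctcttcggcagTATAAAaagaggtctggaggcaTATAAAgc
Pf4: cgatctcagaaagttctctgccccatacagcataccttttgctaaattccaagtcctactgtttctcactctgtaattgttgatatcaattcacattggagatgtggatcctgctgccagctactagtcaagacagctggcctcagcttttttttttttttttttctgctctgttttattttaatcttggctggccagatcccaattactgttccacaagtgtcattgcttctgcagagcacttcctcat
Cxcl3: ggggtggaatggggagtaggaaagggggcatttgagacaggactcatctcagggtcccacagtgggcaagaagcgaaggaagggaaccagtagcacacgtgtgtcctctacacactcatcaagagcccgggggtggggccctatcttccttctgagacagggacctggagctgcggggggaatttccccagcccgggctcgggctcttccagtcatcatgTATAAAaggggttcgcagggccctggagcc
On the strand of the gene, the only strand searched for it, TATAAA began 30 bases before the start in both Ppbp and Cxcl3, and again 8 bases before the start in Ppbp. The Pf4 window held none. Over all 32851 windows of this length 7.59% held TATAAA, and of the 13 chemokine genes of the list with a window 5 did (38.5%). These matches describe the letters only.

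Cxcl5, a neutrophil chemokine, was at 54.7 CPM in the Arg1 Ppbp macrophages against 1.28 in the comparison cells and 2.89 in the Arg1-only cells. Against the Arg1-only cells it was higher by 4.02 ± 0.41 (log2 ± SE, edgeR's quasi-likelihood test, adjusted p = 1.35e-05) and higher in 8 of 9 tags, and against the comparison cells it was not tested because it missed the filter on low counts. Its molecules were concentrated: 39 of the 540 cells carried it, 10 cells held 701 of the 855 molecules (82.0%) and 1 cell held 325. Cxcl15 was near 0 everywhere (1 molecule). Ereg was at 5.50 CPM against 3.57, and Epgn had 1 molecule.

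Across the 9 tags with at least 20 cells in both sets (481 of the 540 cells and 6627 comparison cells), edgeR tested 10120 genes. At an adjusted p below 0.05 it called 671 genes higher (6.63%) and 715 lower (7.07%) in the Arg1 Ppbp macrophages, with a median log2 difference of -0.01 over all genes tested. When the comparison was narrowed, after the data had been seen, to the 4245 cells that met every other limit of the rule, 919 of 9835 genes were higher (9.34%) and 890 lower (9.05%). This second value is given below for the described lists whose counts moved by at least 2 genes or whose median changed sign, and for named genes that lost the call or whose difference shrank by over 1.5 times, since the rule itself keeps Fabp4, class II and cavity macrophages out of only 1 side of the main comparison. Per the labels, tags mark biological replicates. Levels in CPM are pooled over all cells of a set, and log2 differences are fitted over tags. List counts outside library 1 and at middle depth, given below, come from fits with fewer calls than the main one. Of all 9842 genes tested outside library 1, 103 were higher and 195 lower. Of all 10151 tested at middle depth, 276 were higher and 301 lower.

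Chemokine genes moved both ways, more of them up than down. Cxcl3, a ligand of the neutrophil receptor CXCR2, was carried by 408 of the 540 cells, and its lowest, median and highest tags were at 217, 700 and 965 CPM, against 77.3, 128 and 594 CPM in the comparison cells. It rose 3.02-fold (log2 1.60 ± 0.17, edgeR adjusted p = 1.23e-05) and was higher within 9 of 9 tags, although the ranges over tags overlapped. Of the 16 CXC and CC chemokine genes tested, 9 were higher and 4 lower, with a median log2 difference of 0.50. Cxcl1 and Cxcl2, which act on the same receptor, rose by 0.63 and 0.50 on the log2 scale. Ccl6 and Ccl9, myeloid chemokines that bind CCR1, rose by 0.89 and 0.84, and Ccl7, Ccl2 and Ccl12, ligands of the monocyte receptor CCR2, rose by 0.75, 0.56 and 0.50 (Ccl12 at 0.36, adjusted p = 0.051, within the other limits). Cxcl14 rose by 0.98. The 4 lower genes were the inflammatory CC chemokines Ccl5, which fell by 2.37 on the log2 scale, Ccl4, which fell by 0.84, and Ccl3, which fell by 0.62, and the scavenger-receptor chemokine Cxcl16, which fell by 0.38. In the 2 tags outside library 1 (50 Arg1 Ppbp macrophages), 8 of 19 tested chemokine genes were higher and 6 lower.

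Glycolysis and hypoxia-response genes were higher as groups. Of 16 glycolysis genes tested 13 were higher and 0 lower by edgeR (median log2 difference 0.40, 1 lower at an unadjusted p below 0.05, 0 lower by DESeq2). The transporter Slc2a1 rose by 0.70, Pgk1 by 0.72, Pkm by 0.61, Eno1 by 0.53 and the lactate exporter Slc16a3 by 0.50, and Hk1, Hk2 and Pfkfb3 were at 0.30, 0.27 and -0.28 without passing the test. Pgk1, which encodes phosphoglycerate kinase, had a lowest tag of 437 CPM, a median of 720 and a highest of 907, against 314, 390 and 666 CPM in the comparison cells, and it was higher within 9 of 9 tags (± 0.06 SE, edgeR adjusted p = 3.3e-06). Of 16 hypoxia-response genes tested 13 were higher and 0 lower by edgeR (median 0.51, 0 lower at an unadjusted p below 0.05 and 0 by DESeq2). Hif1a, the oxygen-regulated subunit of the hypoxia-inducible factor, rose by 0.79, the mitophagy receptor Bnip3 by 0.89, the mTOR inhibitor Ddit4 by 0.93 and the lipid droplet protein gene Hilpda by 0.69. Egln3, an oxygen sensor, rose by 1.15 ± 0.26, but was at -0.13 in the tags outside library 1. P4ha2, Ndrg1 and Ankrd37 did not pass. Within the other limits 15 hypoxia genes were higher. Outside library 1, where 103 of all 9842 genes tested were higher and 195 lower, the counts were 6 higher and 0 lower for glycolysis and 4 and 0 for hypoxia. In cells from the middle of the depth range of the Arg1 Ppbp macrophages they were 11 and 0, and 9 and 0.

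The windows of Pgk1, the glycolysis gene with the largest rise, and of Bnip3, a hypoxia-response gene higher in every fitted tag, are shown with the core of the hypoxia response element, ACGTG on either strand (CACGT on the printed strand), in capitals. They are RefSeq sequences of build GRCm38.p6 at chrX:106186850-106187099 (plus strand) and chr7:138909507-138909756 (minus strand), 250 bases before the start, 5′ to 3′.
Pgk1: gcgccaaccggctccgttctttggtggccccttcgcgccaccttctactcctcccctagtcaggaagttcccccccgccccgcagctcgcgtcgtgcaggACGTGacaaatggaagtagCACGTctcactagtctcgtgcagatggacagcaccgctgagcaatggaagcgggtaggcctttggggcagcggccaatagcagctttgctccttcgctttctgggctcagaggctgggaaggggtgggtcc
Bnip3: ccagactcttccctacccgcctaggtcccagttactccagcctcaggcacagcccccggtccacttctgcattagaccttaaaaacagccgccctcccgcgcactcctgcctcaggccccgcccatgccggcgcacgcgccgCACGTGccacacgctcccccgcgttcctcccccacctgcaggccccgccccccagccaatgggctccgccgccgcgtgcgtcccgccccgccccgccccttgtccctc
In Pgk1 matches began 150 and 131 bases before the start. In Bnip3 those 108 and 107 bases before it overlap, 1 on each strand. Of all 32851 windows 16.6% held ACGTG on either strand. Of the 24 windows of the 16 glycolysis genes 11 did (45.8%), and of the 19 windows of the 15 hypoxia genes with a window 12 did (63.2%). The match says nothing of binding in these cells.

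**Figure D4:**
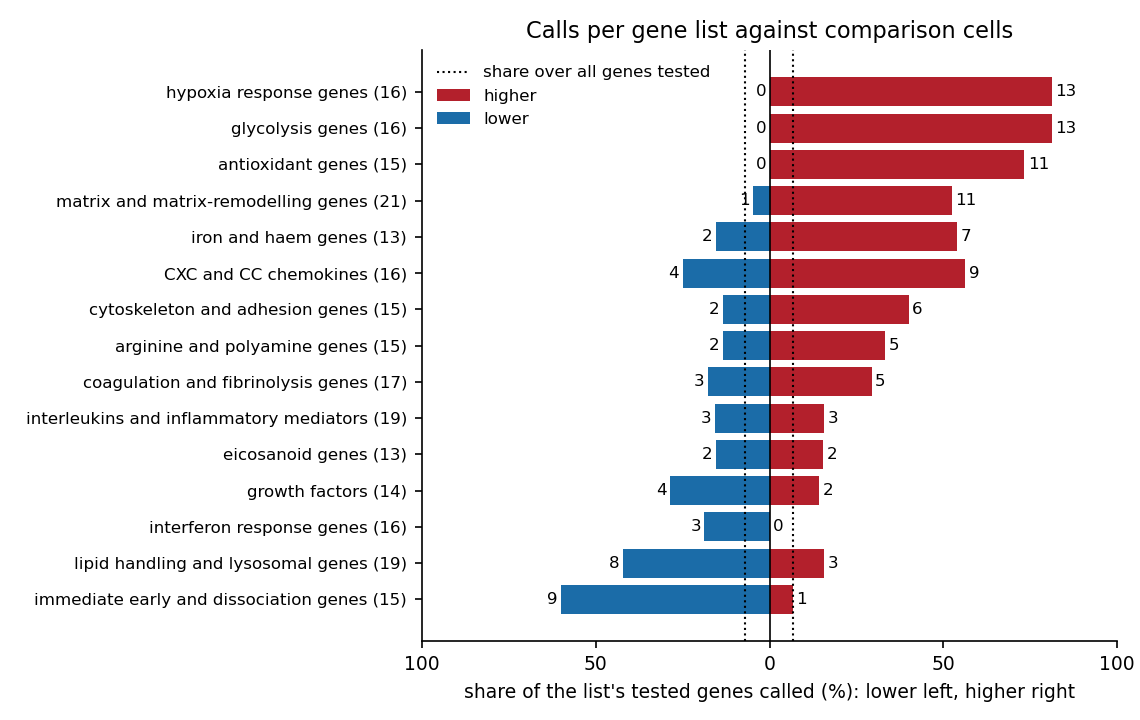
Share of tested genes of each list that edgeR called higher (right) or lower (left) in Arg1 Ppbp macrophages against comparison cells (x axis, %), with the number of genes beside each bar, the number tested in brackets, and dotted lines at the shares over all genes tested (6.63% higher, 7.07% lower). Hypoxia and glycolysis lists have 13 of 16 genes higher, and the immediate early list has 9 of 15 lower.

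Most antioxidant genes and 7 of 13 iron and haem genes were higher. Hmox1, which encodes the haem-degrading enzyme haem oxygenase 1, was at 2059, 3653 and 4777 CPM in the lowest, median and highest tags, against 882, 1549 and 2237 CPM in the comparison cells. It rose 2.25-fold (log2 1.17 ± 0.15, edgeR adjusted p = 5e-05), within 9 of 9 tags, with little overlap of the ranges. Of the 13 iron and haem genes tested 2 were lower and 4 did not pass (median 0.25). The iron exporter Slc40a1 rose by 0.97, the haem transporter Slc48a1 by 0.71, and the ferritin chains Fth1 and Ftl1, whose reads may be shared with pseudogenes, by 0.30 and 0.25. Ncoa4, the ferritin receptor for autophagy, fell by 0.55 and Cp, the ferroxidase ceruloplasmin, by 2.54. Of 15 antioxidant genes tested 11 were higher and 0 lower by edgeR (median 0.42, 0 lower at an unadjusted p below 0.05 and 0 by DESeq2), among them the cystine transporter Slc7a11 (0.83), the glutathione synthesis genes Gclm (0.58) and Gclc (0.53) and the peroxiredoxin Prdx1 (0.52). Outside library 1 the counts were 3 higher and 0 lower for iron and haem and 2 and 0 for antioxidant genes. In cells of middle depth they were 3 and 2, and 5 and 0.

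Matrix genes and the growth factor Vegfa were also higher. Vegfa had 468, 636 and 898 CPM in the lowest, median and highest tags against 228, 294 and 596 CPM, and rose by 0.93 ± 0.08 (edgeR adjusted p = 3.3e-06), within 9 of 9 tags. Of 21 matrix genes tested 11 were higher and 1 lower (median 0.32), and within the other limits 14 were higher and 1 lower. Mmp19, a metalloproteinase of activated macrophages, rose by 0.98, the proteinase inhibitor Timp1 by 0.82, the sheddase Adam8 by 0.72, and the matrix proteins Fn1, Thbs1 and Spp1 by 0.60, 0.52 and 0.42. Timp2 fell by 0.51. The elastase gene Mmp12 was at 0.26 (adjusted p = 0.49) against all comparison cells and at 1.14 against those within the other limits (edgeR adjusted p = 0.0048). Of 14 growth factor genes tested 2 were higher and 4 lower: Vegfa and Areg, against Gdf15 (-0.72), Igf1 (-0.66), Pdgfb (-0.58) and Pdgfc (-0.49). Areg, which encodes the EGF receptor ligand amphiregulin, rose by 1.49 ± 0.29 but in 7 of 9 tags, was at -0.30 outside library 1, and had 51.4% of its molecules in 10 cells. For the matrix list the count outside library 1 was 5 higher and 1 lower of 23.

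Arginine and polyamine genes other than Arg1 moved both ways. Of 15 tested 5 were higher and 2 lower (median 0.15). Odc1, which makes putrescine from ornithine, rose by 0.57 ± 0.09 within 9 of 9 tags, Arg2, the mitochondrial arginase, by 0.38, Eif5a, the protein that carries a spermidine-derived residue, by 0.29, Smox by 0.28 and Sms by 0.24. Sat1, which starts polyamine breakdown, fell by 0.59, and the arginine transporter Slc7a2 by 0.93, which was -0.04 (adjusted p = 0.94) against cells within the other limits. There Arg2 was at 0.31 (adjusted p = 0.075) and Smox at 0.19 (adjusted p = 0.051).

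Genes of the coagulation list split. Procr (endothelial protein C receptor) rose by 1.19, Thbd (thrombomodulin) by 0.99 ± 0.16, F13a1 by 0.65, and S100a10 and Anxa2, which form a plasminogen receptor, by 0.59 and 0.41. F5 fell by 1.1, Serpinb2 by 2.09 and Plau by 0.45, so 5 of 17 tested were higher and 3 lower (median 0.05). Within the other limits 6 were higher and 1 lower (median 0.23), with F13a1 at 0.42. F5 and Serpinb2 are also markers of cavity macrophages, and against cells within the other limits they were at -0.39 (adjusted p = 0.09) and -0.30 (adjusted p = 0.72). F3, which encodes tissue factor, was at 0.07 ± 0.39 (edgeR adjusted p = 0.951), and at 0.80 (adjusted p = 0.20) within the other limits. Pooled, F3 had 0 molecules in the Ppbp-only cells and stood at 1.07 CPM in cells with 0 molecules of both genes. In the Arg1-only cells it was at 30.5 CPM. Arg1 Ppbp macrophages with 2 to 9, 10 to 49 and at least 50 Ppbp molecules had 22.5, 24.0 and 8.85 CPM.

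F7, the gene of the floxed allele, was carried by 120 of the 540 cells (22.2%). In CPM, tags 6 to 12 of library 1 were at 8.42, 11.5, 4.99, 28.8, 33.9, 17.6 and 25.3. Tags 1 to 4 of library 2 were at 25.4, 24.0, 19.5 and 1.00. Tags 7, 8, 10 and 12 of library 3 were at 44.3, 56.9, 11.5 and 19.6, and tag 9 had 0 molecules in 2 cells, which allows up to 48.2 CPM. In tags with fewer than 20 cells these levels rest on at most 15 molecules. Over the 9 fitted tags the lowest, median and highest were 1.00, 17.6 and 44.3 CPM, against 6.04, 17.2 and 57.5 CPM in the comparison cells, so the ranges overlapped. The fitted difference was -0.45 ± 0.15 (edgeR adjusted p = 0.0609), lower in 6 tags and higher in 3, and it was 0.25 (adjusted p = 0.37) against cells within the other limits. Against all comparison cells F7 did pass the threshold, as lower, with DESeq2, without the filter on low counts, in library 1 alone and without library 3. Along the Ppbp classes of cells with at least 5 Arg1 molecules F7 had no order, at 24.98, 31.7, 20.01, 17.4 and 22.1 CPM. In cells with 0 Arg1 molecules that met the other limits it was lower. There it stood at 1.88 CPM (4 molecules) in the Ppbp-only cells and at 5.41 CPM in cells with 0 Ppbp molecules. These are pooled values, given as description only. Cx3cr1, the gene whose promoter drives the Cre, fell by 1.02 ± 0.19 (74.4 against 186 CPM).

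Markers of resident macrophages were lower. Of 12 tested 7 were lower and 1 higher (median -0.49). Pltp fell by 1.19, Selenop by 0.70, Igf1 by 0.66, Hpgds by 0.54 and Lyve1 by 1.37, and Stab1 rose by 0.33. Within the other limits 9 were lower, with Stab1 at 0.17 (adjusted p = 0.059). Of 8 cavity macrophage markers 7 were lower, but nothing is read from that count, because the rule removes Prg4 and Gata6 cells from the Arg1 Ppbp macrophages alone. Within the other limits 2 of 5 were lower (median -0.58). Lipid and lysosomal genes had no common direction: of 19 tested 8 were lower and 3 higher (median -0.13), and within the other limits 5 were lower and 4 higher (median 0.05). Gpnmb fell by 1.34 ± 0.18, from a median of 1458 CPM over the tags of the comparison cells (lowest 795, highest 2206) to 681 CPM (lowest 82.5, highest 1403), and by 0.76 against cells within the other limits. Atp6v0d2, a proton pump subunit, fell by 1.36 and the fatty acid-binding protein gene Fabp5 by 0.67, and these were at -0.44 (adjusted p = 0.22) and -0.01 (adjusted p = 0.98) within the other limits. Cd36, a scavenger receptor, rose by 0.64.

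Saa3, which encodes an acute-phase apolipoprotein, was among the genes that fell most. It was at 8.01, 21.4 and 793 CPM in the lowest, median and highest tags, against 18.3, 330 and 1728 CPM, and fell by 2.47 ± 0.34 (edgeR adjusted p = 9.37e-05), within 9 of 9 tags, with wide overlap over tags. Within the other limits the fall was 0.98 (adjusted p = 0.021). It was carried by 152 of the 540 cells and 59.5% of its molecules were in 10 cells. Of 19 interleukin and inflammatory genes tested 3 were higher (Il10, Il4ra and Tnf, by 0.39, 0.36 and 0.33) and 3 lower (Saa3, Il6 by 1.22 and the decoy receptor Il1r2 by 1.14). Within the other limits 2 were higher and 1 lower (median 0.13, against -0.04 in the main comparison), with Il6 at -0.69 (adjusted p = 0.15), Il1r2 at -0.38 (adjusted p = 0.22) and Il10 at 0.19 (adjusted p = 0.30). Il10 was at -0.35 outside library 1. Il1b was at -0.68 (adjusted p = 0.068).

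Tmem176a and Tmem176b are adjacent genes for membrane cation channels of antigen-presenting cells. Tmem176a fell by 2.33, and Tmem176b fell by 2.36. The latter was at 11.4, 22.2 and 34.2 CPM in the lowest, median and highest tags, against 60.2, 134 and 355 CPM in the comparison cells, so the ranges did not meet. Ighm, the immunoglobulin mu heavy chain gene of B cells, fell by 3.03 ± 0.21, with at most 12.01 CPM in any tag against at least 14.99 CPM in the comparison cells. Ccl5, Hpgd, which degrades prostaglandins, and Axl, a receptor for dying cells, fell by 2.37, 2.28 and 1.68. Sh2d1b1 and Gpr34 fell by 1.94 and 1.76. Among the higher genes outside the lists were Gja1 (1.35), which encodes the gap junction protein connexin 43, Flrt3 (1.12), Syn1 (0.98), Arrdc4 (0.96), Akr1b8 (0.95) and Clec4n (0.94), which encodes the fungal pattern receptor dectin-2, each within 9 of 9 tags.

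Immediate early and dissociation genes were lower: 9 of 15 tested fell and 1 rose (median -0.39). The heat shock genes Hspa1a and Hspa1b, near-identical copies that counting may split, fell by 1.95 and 2.06, Jun by 0.76, Atf3 by 0.73 and Fos by 0.54, and Ier3 rose by 0.49. Outside library 1, 9 were lower and 0 higher. Of the cytoskeleton and adhesion genes 6 of 15 were higher (Lmna, Tagln2, Vim, Ezr, Anxa1 and Itgam, by 0.60, 0.47, 0.38, 0.29, 0.28 and 0.25) and 2 lower (Itgax by 0.85, Clec2d by 0.42), with Itgax at -0.29 (adjusted p = 0.36) within the other limits. Of 13 eicosanoid genes 2 were higher (Ptges3 by 0.36, Pla2g4a by 0.27) and 2 lower (Alox15 by 3.33, Hpgds by 0.54). Alox15, also a cavity macrophage marker, was not tested within the other limits. Of 16 interferon response genes 0 were higher by edgeR (0 at an unadjusted p below 0.05, 0 by DESeq2) and 3 lower (Ifi44 by 1.23, Mx1 by 0.92 and Irf7 by 0.41), and 5 were lower within the other limits.

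**Figure D5:**
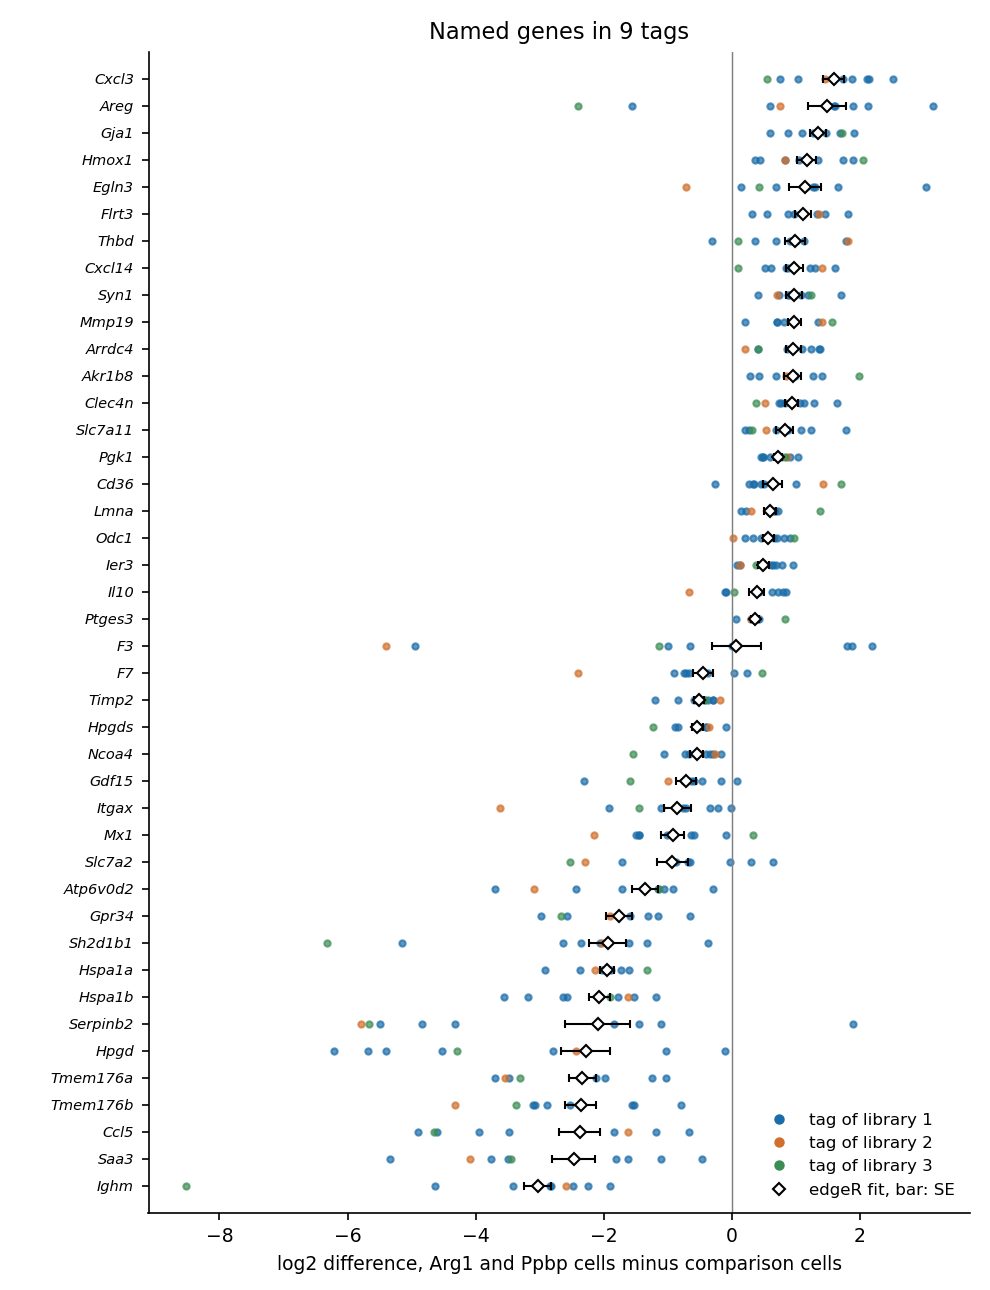
Log2 difference between Arg1 Ppbp macrophages and comparison cells (x axis) for the named genes, with the edgeR estimate ± SE and 1 point per tag (9 tags). Gja1, Cxcl3 and Hmox1 lie to the right of 0 in every tag and Ighm, Tmem176a and Tmem176b to the left, while F7 and F3 have tags on both sides.

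The comparison with Arg1-only cells asked what goes with Ppbp when Arg1 is present in both. In 9 tags (1311 Arg1-only cells) edgeR tested 9055 genes and called 369 (4.08%), 124 higher (1.37%) and 245 lower (2.71%). The comparisons share the same 481 cells, so their values are only set side by side. Cxcl3 was at 702 CPM against 423 in the Arg1-only cells and rose by 0.59 ± 0.13 (edgeR adjusted p = 0.014). Cxcl1 and Cxcl2 did not differ from the Arg1-only cells, at -0.09 and -0.05 (edgeR adjusted p = 0.76 and 0.81). Among 17 chemokine genes 5 were higher (Cxcl5, Cxcl3, Ccl6, Ccl7 and Ccl9) and 3 lower. Hmox1 rose by 0.90 ± 0.12 (8 of 9 tags), Slc40a1 by 1.22 and Slc48a1 by 0.63, so that 6 of 12 iron and haem genes were higher and 0 lower (0 lower at an unadjusted p below 0.05 and 0 by DESeq2). Glycolysis and hypoxia genes mostly did not pass: 3 of 16 (Pkm, Pgk1 and Pgam1, by 0.27, 0.27 and 0.26) and 2 of 16 (Ddit4 by 0.59 and Hif1a by 0.33) were higher. In both lists 0 were lower, also at an unadjusted p below 0.05 and by DESeq2. Of 15 arginine and polyamine genes 0 were higher by edgeR (2 at an unadjusted p below 0.05, 1 by DESeq2) and 1, Sat1, was lower. Antioxidant genes had 3 of 15 higher and 0 lower (3 lower at an unadjusted p below 0.05, 0 by DESeq2). Immediate early and dissociation genes had 4 of 15 lower (Hspa1a, Hspa1b, Egr1 and Dusp1, median of the list -0.18). There 0 were higher (1 at an unadjusted p below 0.05, 0 by DESeq2), and DESeq2 called 1 lower. Mrc1, the mannose receptor, rose by 0.61, Akr1b8 by 0.84, Slc35e4 by 0.50, Rnf128 by 0.49 and Mmp12 by 1.22. Among 21 matrix genes 4 were higher (Mmp12, Mmp19, Adam8 and Mmp14) and 2 lower (Vcan and Timp2), so Fn1, Thbs1 and Spp1 were not called. None of 13 growth factor genes was called by edgeR, Vegfa included. At an unadjusted p below 0.05, 1 growth factor gene was higher and 2 lower, and DESeq2 called 0 higher and 1 lower.

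Lower than in the Arg1-only cells were 5 of 19 interleukin and inflammatory genes, 4 of 5 cavity macrophage markers and 3 of 12 resident macrophage markers (Lyve1, Pltp and Cbr2), of which 8 did not pass and Stab1 was higher (0.28). Il6 was at 0.777, 31.3 and 236 CPM in the lowest, median and highest tags against 46.6, 138 and 724 CPM, and fell by 1.93 ± 0.29 (edgeR adjusted p = 0.000586), within 9 of 9 tags. Saa3 fell by 2.18, Il1a by 1.01, Il1b by 0.94 and Trem1, which amplifies myeloid activation, by 0.58, and Il4ra was higher (0.28). Ccl5, Ccl4 and Ccl3 fell here too, by 1.90, 0.67 and 0.39. Fcna, a lectin of the complement system, fell by 2.18, Mlxipl, a sugar-responsive transcription factor, by 2.41, and Prtn3, a granule proteinase, by 2.14. Lyve1 fell by 2.32, Pltp by 1.06, Cbr2 by 0.37 and F5 by 1.34, and F7 was at -0.28 ± 0.15 (adjusted p = 0.378). Of 12 eicosanoid genes 4 were lower: Ltc4s by 1.39, Ptges by 1.04, Alox5 by 0.92 and Ptgs1 by 0.79. With cells of middle depth only (6 tags, 201 of the Arg1 Ppbp macrophages), 13 genes were higher and 32 lower, and Saa3 was at -0.80 (adjusted p = 0.55). In the 2 tags outside library 1 the counts were 13 and 70.

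The comparison with Ppbp-only cells asked what goes with Arg1. No tag had 20 Ppbp-only cells, so tags with at least 5 were used (9 tags, 78 cells), a limit chosen after the data had been seen. Of 5193 genes tested 116 were called (2.23%), 82 higher (1.58%) and 34 lower (0.655%). Mmp9 rose by 3.51 ± 0.39 (188 against 10.8 CPM), Nt5e, the ectoenzyme CD73, by 2.74, Cxcl3 by 2.47, Cgnl1 by 2.24 and Ms4a8a by 2.20, each within 9 of 9 tags. Here 8 of 16 glycolysis genes were higher (Pgk1 by 0.87, Eno1 and Tpi1 by 0.69), as were 4 of 13 hypoxia genes (Bnip3 and Hilpda by 1.31, Ero1l by 1.05, Hif1a by 0.83) and 8 of 17 matrix genes (Fn1 by 1.86, Timp1 by 1.39, Spp1 by 1.27). Vegfa rose by 1.20 and Trem1 by 2.13. Of 11 iron and haem genes tested 0 passed by edgeR in either direction (1 at an unadjusted p below 0.05, 0 by DESeq2), and Hmox1 was at 1.07 ± 0.31 (edgeR adjusted p = 0.0787). Hspa1b and Hspa1a fell by 3.22 and 3.04, Axl by 1.69, Cx3cr1 by 0.97 and Pou2f2 by 0.90, and 6 of 10 resident macrophage markers were lower. Pf4, which was not tested, stood at 1492 CPM in the Ppbp-only cells against 3020 in the Arg1 Ppbp macrophages, 1376 in the Arg1-only cells and 538 in cells with neither gene. Outside library 1 only 11 Ppbp-only cells in 2 tags were left, with 6 genes higher and 6 lower.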

How the data were processed

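Leukocytes selected by CD45 from infarcted hearts were read in 3 multiplexed BD Rhapsody libraries. The authors deposited counts of molecules, deduplicated and error-corrected (RSEC), per the file headers. Library 1 used pipeline 2.0b1 on Enhanced beads with intronic reads not excluded, and libraries 2 and 3 used pipeline 1.10 on Original (V1) beads, all with GRCm38 and GENCODE M19, per the file headers. The sources used here do not state aligner settings, use of strand, or how reads of near-identical copies were handled.

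Of 25762 cells, 122 with fewer than 200 genes were left out. Tags of library 1 held 1877 to 2494 of the remaining cells, those of library 2 713 to 1302 and those of library 3 695 to 1066. Counts were summed per tag and cell set (at least 20 cells, at least 5 for Ppbp-only cells) and entered edgeR's quasi-likelihood test (edgeR 4.0.16 in R 4.3.3) after filterByExpr and TMM scaling. Tag was a blocking factor, since both sets of a tag come from the same heart or pool. Benjamini-Hochberg adjustment ran over every gene tested, with a threshold of 0.05. Scrublet scores came from scanpy 1.11.5 (Python 3.11.15). The test was checked on simulated counts. DESeq2 1.42.0, other scalings, filters, depth, limits and left-out libraries were the alternatives.

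Named genes were the 10 higher and 10 lower called genes with the largest log2 difference and the same sign in every tag (5 and 5 in the other 2 comparisons), with at least 20 CPM in the higher set. Genes of the rule, Pf4, Pdpn, unnamed gene models, mitochondrial and ribosomal genes were left out. The largest call of each list in each direction, F7, F3 and platelet markers were added. Further list genes, and Cxcl5, were named after their values were seen. The members and lists were chosen with earlier results of these data known. Positions are from the GENCODE annotation of GRCm38. Promoter windows are from RefSeq (GRCm38.p6). Of the lists shown with motifs, 16 of 16 glycolysis, 15 of 17 hypoxia and 13 of 20 chemokine genes matched a window. The level of 1 platelet marker is not reported here on its own.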

Additional observations from a re-analysis of the deposited data

Results flagged for a closer look

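Of 65 groups of tag values examined, 4 had 1 tag far from the others, and chance alone marks about 1 in 20. In tag 7 of library 3, which had 22 Arg1 Ppbp macrophages, the log2 difference from the comparison cells was -8.52 for Ighm (0 molecules in the Arg1 Ppbp macrophages, which allows up to 6.04 CPM, against 74.3 CPM), where the median over the 9 tags was -2.82. In the same tag it was 0.83 for Ptges3 (231 against 130 CPM, median over tags 0.34) and 1.38 for Lmna (934 against 360 CPM, median over tags 0.61). The value for Ighm rests on the prior count of the fit and is no measured fold. For F7 the difference was -2.39 in tag 4 of library 2 (1 molecule in 28 cells, 1.00 CPM, against 6.04 CPM), where the median over tags was -0.67. A gap of this kind was marked in no other group examined.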

How the results depend on the processing

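Of the 42 genes named against the comparison cells, all 42 kept direction and side of the threshold with DESeq2 size factors, without the highest doublet scores and without library 2. Without library 1, 26 did, 12 lost the call and 4 reversed, and without the block 25 did, 16 lost the call and 1 reversed. Under the other settings run, 34 or more did (of 40 or 42). Of the 10 named against the Arg1-only cells, 0 kept the call without the block, 4 at middle depth and 6 without library 1, and 8 or more did under the other settings. Of those named against the Ppbp-only cells, 2 of 10 did without library 1 and 1 of 4 at middle depth, and 9 or more of 10, or 9 of 9, under the others. Leaving out 1 library at a time, the difference ran from -0.35 to 0.48 for Il10, -0.30 to 1.66 for Areg, -0.13 to 1.25 for Egln3 and -1.69 to 0.20 for F3, in each case lowest without library 1. F3, never past the threshold in the main comparison, was also at -0.35 by DESeq2, -0.0267 without the filter on low counts, -0.13 without the block, -0.47 and -0.0339 at middle depth (at least 20 and 10 cells) and -0.0863 with stricter limits. F7, just short of the threshold in the main comparison, passed it as lower with DESeq2, without the filter on low counts, in library 1 alone and without library 3. It was at 0.25 against cells within all other limits.

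Counts of calls moved more. Against the comparison cells (671 higher, 715 lower) they were 290 and 1656 without the filter, 185 and 206 without the replicate block (tag), 235 and 269 with at least 50 cells, and 276 and 301, or 303 and 289, at middle depth with at least 20 or 10 cells. Against Arg1-only cells (124 and 245) they were 0 and 1 without the block (699 genes at an unadjusted p below 0.05; DESeq2 with the block gave 124 and 224), 48 and 111 with at least 50 cells, and 13 and 32, or 15 and 37, at middle depth. The lower count was 514 without the filter and 162 in library 1 alone. Against Ppbp-only cells (82 and 34) they were 32 and 11 without the block, 19 and 9 at middle depth and 284 and 264 with looser limits, and 254 were higher without the filter. Leaving out 1 library at a time gave 103 to 594 higher and 195 to 681 lower against comparison cells, 13 to 130 and 70 to 229 against Arg1-only cells, and 6 to 83 and 6 to 32 against Ppbp-only cells, the lowest each time without library 1. The cause was not tested, although fewer cells or tags entered several of these fits. Libraries 2 and 3 alone (1 tag each) could not be fitted, nor could Ppbp-only cells with at least 20 or 50 cells or stricter limits.

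Depth limits F7, with 308 molecules in 540 cells and 1 to 106 per fitted tag.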
